A study of Mus musculus with 6 samples.

Results

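The Rnf genes encode RING finger proteins, most of them E3 ubiquitin ligases. They were measured in CD31-sorted retinal cells of mouse pups in which Rnf20, itself an Rnf gene, was or was not targeted in endothelium. All symbols of the table used here that begin with Rnf and a digit were taken, except the targeted gene Rnf20 and its partner Rnf40, which left 75 genes among the 19124 of the deposited table. Both groups were C57BL/6 pups with the genotype Rnf20p/p that received 75 µg of 4-hydroxytamoxifen a day from postnatal day 1 to day 4 and were taken at day 7. The 3 KO pups were Pdgf{beta}CreERT2pos, which gives them a tamoxifen-inducible Cre recombinase driven by the Pdgfb promoter, active chiefly in endothelium. The 3 Ctrl pups were Pdgf{beta}CreERT2neg, so that an effect of Cre itself and one of losing Rnf20 cannot be told apart. Each library came from a different pup, whose retinas were digested with collagenase and sorted for CD31, a surface protein of endothelial cells that platelets and some leukocytes also carry. The polyadenylated RNA of each pup was turned into full-length cDNA by a protocol for small inputs.

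A RING domain is a fold held by zinc ions that brings a ubiquitin-conjugating enzyme (E2) close to a substrate, so that ubiquitin passes from the E2 to the substrate. The members differ in what surrounds the RING: some sit in the membranes of the endoplasmic reticulum (ER) or lysosome, some act on histones at broken DNA, and the RING-between-RING (RBR) ligases take ubiquitin onto a cysteine of their own before handing it on. The name Rnf is shared by RING proteins of many separate lineages, so the members are not one pathway. Rnf20 and Rnf40 together attach ubiquitin to histone H2B.

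In a quasi-likelihood fit of edgeR over 16217 genes, with p-values adjusted by Benjamini-Hochberg (the edgeR adjusted p below), 3 members were lower in KO than in Ctrl at the threshold of 0.05: Rnf32, Rnf6 and Rnf144b. The 250 bases before a start site of each are shown, since these are the members past the threshold. They are from RefSeq on GRCm38.p6, in the direction of transcription, for the only start of Rnf32 in the promoter table and the farthest upstream of the 2 of Rnf144b and the 3 of Rnf6. The Rnf32 window lies inside the span of the gene given below, since a longer transcript begins upstream of it, while the other windows lie just outside their genes. Capitals mark matches to 7 motifs searched on both strands.
Rnf32, chr5:29195743-29195992, plus strand: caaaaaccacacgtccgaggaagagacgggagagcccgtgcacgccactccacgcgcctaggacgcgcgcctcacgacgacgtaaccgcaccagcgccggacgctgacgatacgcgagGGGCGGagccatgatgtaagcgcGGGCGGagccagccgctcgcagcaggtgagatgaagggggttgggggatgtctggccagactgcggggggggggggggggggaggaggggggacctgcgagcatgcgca
Rnf6, chr5:146221458-146221707, minus strand: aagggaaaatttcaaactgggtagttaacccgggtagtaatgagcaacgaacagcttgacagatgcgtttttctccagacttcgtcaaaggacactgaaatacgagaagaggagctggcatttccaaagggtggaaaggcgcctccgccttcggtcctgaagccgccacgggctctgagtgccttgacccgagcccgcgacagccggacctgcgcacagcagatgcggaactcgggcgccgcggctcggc
Rnf144b, chr13:47122470-47122719, plus strand: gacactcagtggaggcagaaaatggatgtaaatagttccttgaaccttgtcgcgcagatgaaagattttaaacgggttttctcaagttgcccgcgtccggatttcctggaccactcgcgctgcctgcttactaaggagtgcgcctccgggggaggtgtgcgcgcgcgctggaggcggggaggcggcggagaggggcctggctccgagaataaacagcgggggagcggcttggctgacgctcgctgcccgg

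Searched were TATAAA of the core promoter, CCAAT of NF-Y, GGGCGG of Sp1 (the GC box), CCGGAAG of ETS factors, CACGTG of E-box proteins, TGACGTCA of CREB, and TAATCC, the core of the photoreceptor factor CRX. None of these is contained in another. The Rnf32 window held 2 GC boxes, 132 and 109 bases before the start, while the Rnf6 and Rnf144b windows held none of the 7. A start listed in RefSeq was found for 54 of the 71 tested members. Of these 54 windows 59.3% held a GC box, against 33.0% of 27025 windows of all genes. The CRX core was in 7.41%, against 6.37% of all windows. The 27025 windows were not filtered on counts, as the members were, so the sets are unlike and the difference may not be particular to Rnf genes. A match is a stretch of letters, with no binding measured.

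The libraries held 25016982, 27726249 and 30692948 counts in KO 1, 2 and 3, and 28969300, 22677108 and 14581701 in Ctrl 1, 2 and 3. Rnf20 was at 31.0 to 39.1 CPM (counts scaled to a common library size, with TMM) in KO and 47.9 to 57.1 CPM in Ctrl (log2 fold change −0.67, SE 0.235, edgeR adjusted p = 0.101). Rnf40 was at 59.7 to 111 CPM in KO and 94.1 to 148 CPM in Ctrl (−0.44, edgeR adjusted p = 0.374). The sorted cells were not endothelium alone. The summed level of 15 endothelial markers was 11428, 15631 and 11890.4 CPM in KO 1, 2 and 3 and 3708, 5139.5 and 5657 CPM in Ctrl 1, 2 and 3, and 10 of the 15 passed the test, all higher in KO. The summed level of 14 photoreceptor markers was 5064, 10342 and 24488 CPM in KO 1, 2 and 3 and 34964, 19642 and 22590.3 CPM in Ctrl 1, 2 and 3, and 3 of the 14 passed, all lower. Inner retinal neuron markers summed to 922 to 1713 CPM in KO and 2680.3 to 3127 CPM in Ctrl, and 3 of 13 tested passed, all lower. Microglial markers summed to 268, 14288 and 2765 CPM in KO 1, 2 and 3 and 1442, 1841 and 286 CPM in Ctrl 1, 2 and 3 (0 of 14 passed). Müller glia and astrocyte markers summed to 2843, 17264 and 5833 CPM in KO and 2252 to 2951 CPM in Ctrl (4 of 10 passed, all higher), with Apoe alone at 445, 14882 and 3769.9 CPM in KO 1, 2 and 3 and 609 to 1704 CPM in Ctrl, while Aqp4, Slc1a3, Rlbp1 and Dkk3 had estimates below 0 (−1.90 to −0.05). Ganglion cell markers summed to 315 to 344 CPM in KO and 75.5 to 115 CPM in Ctrl (2 of 7 passed, both higher), mostly Rbpms, while Pou4f1 (−1.28) and Slc17a6 (−0.44) had estimates below 0. The summed markers of red blood cells (459.9 to 685 CPM in KO and 61.7 to 98.2 CPM in Ctrl, 5 of 6 tested passed, all higher) and platelets (25.6 to 43.0 CPM in KO and 12.7 to 14.0 CPM in Ctrl, 2 of 4 tested passed, both higher) were higher in each KO library. Mural cell markers summed to 322 to 788 CPM in KO and 138 to 807 CPM in Ctrl (1 of 11 passed, higher). In such mixed samples fewer cells of a type and less RNA per cell cannot be told apart, and the part of these cell types in the results on Rnf genes was not tested.

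Few single Rnf genes passed edgeR's quasi-likelihood test. Of the 75 members 71 passed the filter on low counts. The other 4 had at most 17 counts in any library: Rnf112, Rnf151, Rnf222 and Rnf43. Of the 71, 3 were lower and 0 higher by edgeR's quasi-likelihood test, which is 4.23% lower, beside 4.44% of all tested genes lower, 5.85% higher and 10.3% in either direction. At an unadjusted p below 0.05 there were 16 members (22.5%), against 30.5% of all genes. The share of members that fell was near that of all genes. Without KO 1, 16 of 72 tested members passed (5 higher, 11 lower), where 29.7% of all genes did (15.2% higher, 14.5% lower). DESeq2 called 10 of the 71 (2 higher, 8 lower), where it called 22.1% of all genes (12.6% higher, 9.49% lower). The count was 4 with DESeq2 size factors in edgeR (10.5% of all genes), 4 with library size alone (9.37%), 1 without a filter on low counts (7.61%), 5 in limma-voom (11.8%) and 2 without KO 3 (5.23%).

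The members leaned towards lower levels in KO. Their median log2 fold change was −0.21, against 0.03 for all genes tested. Of the 71 estimates 44 were negative, beside 7940 of 16217 for all genes. The median stayed negative, between −0.35 and −0.13, under all 14 alternative settings. The median of all genes was also below 0 with library size and no further scaling (−0.09), in limma-voom (−0.04), with the replicate block (−0.04) and with GC offsets (−0.02). KO and Ctrl levels did not overlap for 22 members: 16 of the 71 (22.5%) lay lower in each KO library, against 18.9% of all genes, and 6 (8.45%) lay higher, against 19.0%. The summed level of the 75 members was 3827, 3879.7 and 4338 CPM in KO 1, 2 and 3, and 5219, 4564 and 4589 CPM in Ctrl 1, 2 and 3. Each KO library was below each Ctrl library. The means were 4015 ± 281 CPM in KO and 4790.4 ± 371 CPM in Ctrl (SD, n = 3 each), a net difference of −775 CPM. Of the members' mean levels 46 were lower and 29 higher in KO, so falls and rises partly cancel in it. The falls of Rnf145, Rnf14 and Rnf6 summed to −493 CPM, 63.6% of the net difference and a smaller share of all falls. No test was made of the sum, since the members were chosen by name and not sampled.

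**Figure D1:**
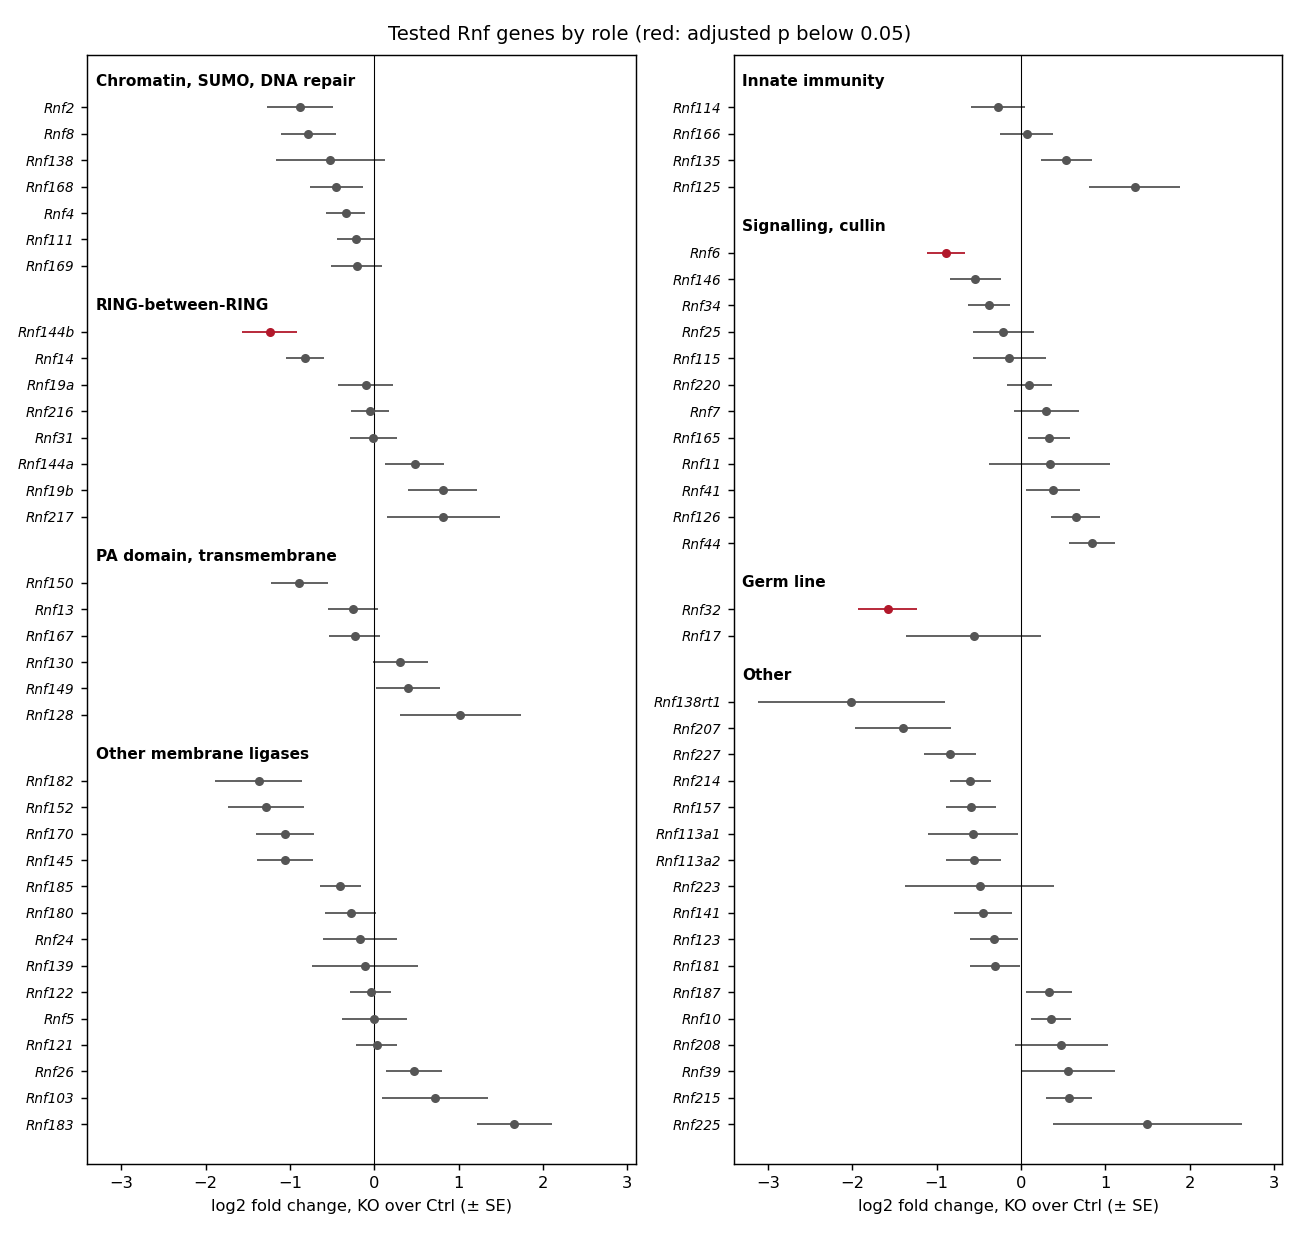
Fold change on the log2 axis, KO over Ctrl, with bars of 1 standard error, for 70 of the 71 tested Rnf genes, grouped by role, from 3 KO and 3 Ctrl libraries; red marks an edgeR adjusted p below 0.05. The 3 red genes, Rnf32, Rnf6 and Rnf144b, lie left of 0, and the 7 genes of the chromatin and repair group also lie left of 0 without passing the test.

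The largest of the 3 falls was in Rnf32 (chromosome 5, 29192745 to 29227635), which encodes a RING protein known mainly from testis. Its level was 5.25, 9.28 and 11.7 CPM in KO 1, 2 and 3, against 28.9, 24.2 and 25.4 CPM in Ctrl 1, 2 and 3. The highest KO library was at less than the lowest Ctrl library, and KO 1 was the lowest of all. The mean was 8.73 ± 3.24 CPM in KO and 26.2 ± 2.45 CPM in Ctrl (SD, n = 3 each), a log2 fold change of −1.58 (SE 0.354, edgeR adjusted p = 0.0332). With offsets for transcript GC content it was −1.08 and did not pass (edgeR adjusted p = 0.143, range 0.00105 to 0.143 over 14 alternatives), and it also lost the call without KO 2, KO 3, Ctrl 1, Ctrl 2 or Ctrl 3 (−1.79 to −1.51, adjusted p 0.0501 to 0.132). Of the other germ line genes, Rnf17, a tudor domain protein of the piRNA pathway in male germ cells, had at most 1.24 CPM in any library (−0.56, edgeR adjusted p = 0.671), and Rnf151, a testis gene, was below the filter.

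Rnf6 (chromosome 5, 146209193 to 146221457, minus strand) encodes a ligase that acts on LIM kinase 1 in neurons and on the androgen receptor in human prostate cells. Its level was 103, 104 and 118 CPM in KO 1, 2 and 3, against 234, 179.9 and 191 CPM in Ctrl 1, 2 and 3. The KO libraries lay close together and well below the lowest Ctrl library. The mean was 108 ± 8.32 CPM in KO and 201 ± 28.4 CPM in Ctrl (SD, n = 3 each), a log2 fold change of −0.89 (SE 0.225, edgeR adjusted p = 0.0449). The call was lost with GC offsets (−0.79, edgeR adjusted p = 0.0508, range 0.00942 to 0.196 over 14 alternatives), without a filter on low counts (−0.90, adjusted p = 0.0530) and without KO 2, KO 3, Ctrl 1, Ctrl 2 or Ctrl 3 (−0.97 to −0.77, adjusted p 0.0832 to 0.158).

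**Figure D2:**
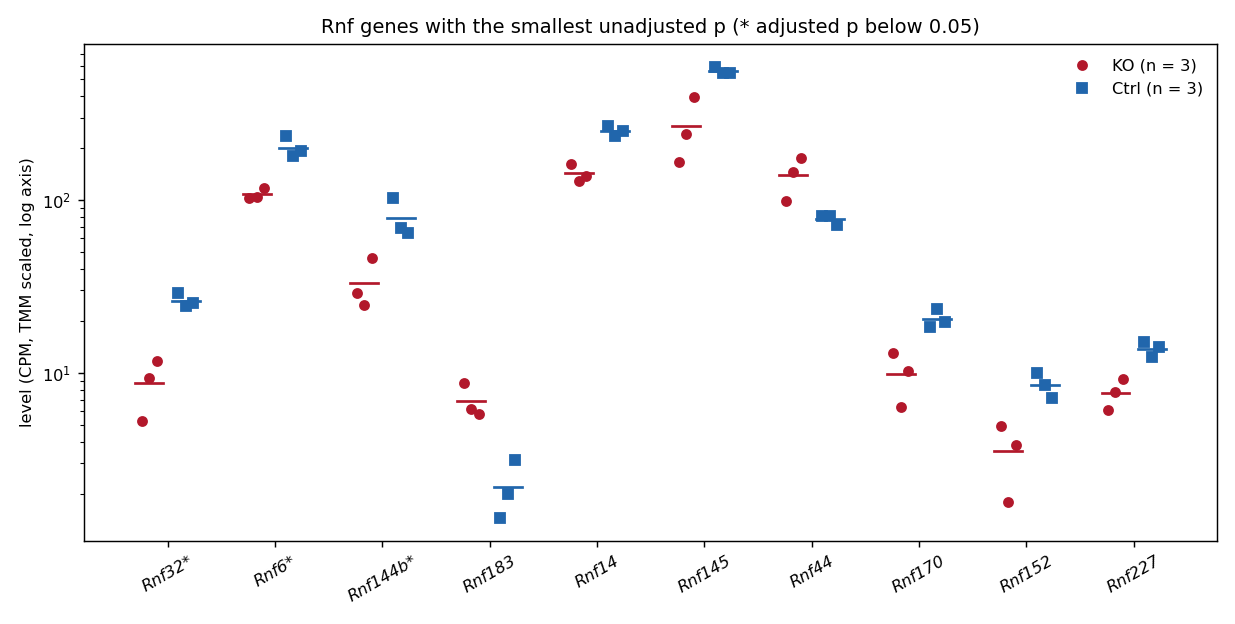
Level in each library, in CPM on a log axis, of the 10 Rnf genes with the smallest unadjusted p; circles are KO, squares Ctrl, bars the means of 3 libraries, and a star an edgeR adjusted p below 0.05. The KO and Ctrl libraries do not overlap for any of the 10, and Rnf183 and Rnf44 are higher in KO while the other 8 are lower.

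Among the RBR ligases 1 of 8 fell and 0 rose, beside 4.44% of all genes lower and 5.85% higher. Rnf144b (chromosome 13, 47122720 to 47247991), a p53-induced ligase, was at 28.9, 24.6 and 46.1 CPM in KO 1, 2 and 3, against 103, 69.0 and 64.2 CPM in Ctrl 1, 2 and 3. The groups were separate, with KO 3 nearest to Ctrl. The mean was 33.2 ± 11.4 CPM in KO and 78.7 ± 21.1 CPM in Ctrl (SD, n = 3 each), a log2 fold change of −1.24 (SE 0.326, edgeR adjusted p = 0.0495). Its call held with GC offsets (−1.18, edgeR adjusted p = 0.0482, range 0.00805 to 0.172 over 14 alternatives) and was lost without KO 2, Ctrl 1, Ctrl 2 or Ctrl 3 (−1.37 to −1.01, adjusted p 0.129 to 0.172) and without a filter on low counts (−1.25, adjusted p = 0.0537). The span of Rnf144b overlaps A930002C04Rik, which had at most 3.96 CPM in any library.

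Rnf144b and its close relative Rnf144a had estimates of opposite sign: Rnf144a had a log2 fold change of 0.48 (SE 0.347, edgeR adjusted p = 0.385), and the difference between the pair was not tested. Rnf14, an RBR ligase first known as a coactivator of the androgen receptor, was at 162, 129 and 138 CPM in KO 1, 2 and 3 and 268, 236 and 251 CPM in Ctrl 1, 2 and 3. Each KO library was below each Ctrl library, but the log2 fold change of −0.82 (SE 0.220) missed the threshold (edgeR adjusted p = 0.0530). It passed in 5 of 14 alternatives (adjusted p over all 14 from 0.0127 to 0.209). In edgeR these were the fits without KO 1 (−0.85, adjusted p = 0.0193), with GC offsets (−0.77, adjusted p = 0.0363) and with library size alone (−0.93, adjusted p = 0.0434). The others were DESeq2 (−0.79, adjusted p = 0.0127) and limma-voom (−0.82, adjusted p = 0.0429). Its span overlaps Pcdh12, a protocadherin of endothelium, whose own estimate was 1.47. Rnf31 (HOIP), the catalytic subunit of the complex that builds linear ubiquitin chains, was at 27.2, 39.8 and 45.0 CPM in KO 1, 2 and 3 and 43.6, 34.2 and 35.0 CPM in Ctrl 1, 2 and 3 (−0.01, SE 0.278, edgeR adjusted p = 0.983). These groups overlapped fully. Rnf216, which acts on innate immune and synaptic proteins, varied least of the members above 5 CPM, with a ratio of 1.27 between its highest and lowest library.

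No member that acts on chromatin or in DNA repair passed the test (0 of 7 by edgeR's quasi-likelihood test and by DESeq2). At an unadjusted p below 0.05 there was 1 of the 7. Over all genes edgeR called 10.3% and DESeq2 22.1%, and 30.5% had an unadjusted p below 0.05. The 7 estimates were negative, with a median log2 fold change of −0.45, where 7940 of 16217 estimates over all genes were negative. Rnf2 (RING1B; chromosome 1, 151469398 to 151500991), the main enzyme that attaches ubiquitin to histone H2A in Polycomb repressive complex 1, was at 99.4, 44.2 and 43.3 CPM in KO 1, 2 and 3 and 81.3, 126 and 137 CPM in Ctrl 1, 2 and 3. KO 1 lay inside the Ctrl range and the other KO libraries below it. The log2 fold change was −0.88 (SE 0.389, edgeR adjusted p = 0.170). Without KO 1 it was −1.32 and passed (edgeR adjusted p = 0.0121, range 0.0121 to 0.407 over 14 alternatives), and with GC offsets it was −0.30 (adjusted p = 0.235).

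Rnf8, which starts the ubiquitin signal at DNA double-strand breaks, was at 42.1, 56.9 and 75.9 CPM in KO 1, 2 and 3 and 137, 79.7 and 84.7 CPM in Ctrl 1, 2 and 3. The groups did not overlap, with KO 3 close to Ctrl 2, and the log2 fold change of −0.78 (SE 0.322) did not pass (edgeR adjusted p = 0.146). The span of Rnf8 overlaps Gm28043, which had more counts than Rnf8 in each library and an estimate of −0.79. Rnf168, which extends the signal that Rnf8 starts, was at 24.3, 17.4 and 14.9 CPM in KO and 19.4, 27.9 and 29.7 CPM in Ctrl (−0.45, edgeR adjusted p = 0.366). Rnf4, which recognises chains of SUMO, was at 183, 158 and 129.6 CPM in KO and 210, 197 and 189.7 CPM in Ctrl (−0.34, edgeR adjusted p = 0.348). Rnf111 (Arkadia), which also reads SUMO and removes inhibitors of TGF-beta signalling, was at 62.7, 75.9 and 64.0 CPM in KO and 76.3, 88.2 and 72.1 CPM in Ctrl (−0.22, edgeR adjusted p = 0.527). Of these, Rnf4 was separate between the groups, while Rnf168 and Rnf111 overlapped.

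Lists of genes that work with these ligases held 1 call each. In the double-strand break pathway 1 of 13 tested genes fell and 0 rose: Abraxas1, a subunit of the BRCA1-A complex, at 16.8 CPM in KO and 42.4 CPM in Ctrl (means, log2 fold change −1.33, edgeR adjusted p = 0.0325). At an unadjusted p below 0.05 there were 6 of these 13 (46.2%, against 30.5% of all genes). In Polycomb repressive complex 1 it was 1 of 18, Pcgf6, at 17.9 CPM in KO and 37.9 CPM in Ctrl (−1.08, edgeR adjusted p = 0.0380). Of the partners of linear ubiquitin 1 of 7 rose and 0 fell, Tnip1, a ubiquitin-binding inhibitor of NF-kB signalling (0.95, edgeR adjusted p = 0.0468). These shares may be set beside 4.44% of all genes lower and 5.85% higher.

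Of 14 membrane ligases of the ER, Golgi and lysosome 5 (35.7%) were lower in each KO library, against 18.9% of all genes. By edgeR's quasi-likelihood test 0 passed, against 10.3% of all genes. At an unadjusted p below 0.05 there were 5 (35.7%, against 30.5% of all genes), and DESeq2 called 5 after adjustment, where it called 22.1% of all genes. Both counts held the same genes: Rnf145, Rnf152, Rnf170 and Rnf182, lower in KO, and Rnf183, higher in KO. Rnf145 (chromosome 11, 44518793 to 44565520), an ER ligase of sterol control that targets HMG-CoA reductase, had the highest mean CPM of all members over the 6 libraries, though in KO Rnf187 was above it in each library: 165, 242 and 394 CPM in KO 1, 2 and 3 and 592, 542 and 541 CPM in Ctrl 1, 2 and 3. The Ctrl libraries were nearly equal and the KO libraries spread over a wide range below them. The mean was 267 ± 117 CPM in KO and 559 ± 29.1 CPM in Ctrl (SD, n = 3 each), with a log2 fold change of −1.06 (SE 0.335, edgeR adjusted p = 0.0771). Without KO 3 it was −1.40 and passed, as it did in DESeq2 (−1.04, adjusted p = 0.0304, range 0.0304 to 0.241 over 14 alternatives). With GC offsets it was −0.72 and did not pass (edgeR adjusted p = 0.237).

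Rnf170, an ER ligase that marks activated IP3 receptors, was at 13.1, 6.37 and 10.2 CPM in KO and 18.4, 23.5 and 19.7 CPM in Ctrl (−1.06, SE 0.344, edgeR adjusted p = 0.0842). Its span overlaps Hook3, whose estimate was −0.71. Rnf152, a lysosomal ligase that restrains mTORC1 through RagA, was at 4.90, 1.79 and 3.84 CPM in KO and 9.91, 8.54 and 7.17 CPM in Ctrl (−1.28, SE 0.448, edgeR adjusted p = 0.0999). Both were lower in each KO library, and both passed without KO 1 (Rnf170 −1.24, edgeR adjusted p = 0.0225, range 0.0225 to 0.265, and Rnf152 −1.54, edgeR adjusted p = 0.0328, range 0.0328 to 0.246, over 14 alternatives each). Neither passed with GC offsets (Rnf170 −0.61, edgeR adjusted p = 0.161, and Rnf152 −0.97, edgeR adjusted p = 0.139). Rnf183 (chromosome 4, 62427540 to 62435250), a membrane ligase best known from mouse kidney, had the largest estimate above 0 of the 71 tested members: 8.70, 6.17 and 5.76 CPM in KO 1, 2 and 3 and 1.44, 1.98 and 3.13 CPM in Ctrl 1, 2 and 3. The groups were separate, the mean was 6.88 ± 1.59 CPM in KO and 2.18 ± 0.864 CPM in Ctrl (SD, n = 3 each), and the log2 fold change of 1.66 (SE 0.446) just missed the threshold (edgeR adjusted p = 0.0520). It passed in 4 of 14 alternatives (adjusted p over all 14 from 0.00327 to 0.193). These were DESeq2 size factors in edgeR (1.69, edgeR adjusted p = 0.0490), DESeq2 (1.70, adjusted p = 0.00327), limma-voom (1.78, adjusted p = 0.0407) and the fit without KO 1 (1.53, edgeR adjusted p = 0.0380). With GC offsets it did not pass (1.40, edgeR adjusted p = 0.104).

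Rnf5 and Rnf185 are related ER ligases that send misfolded proteins to the proteasome. Rnf5 was at 39.0, 66.9 and 107 CPM in KO and 89.6, 54.7 and 68.3 CPM in Ctrl (0.00, SE 0.384, edgeR adjusted p = 0.995), with both the lowest and the highest library in KO. Rnf185 was at 99.2, 111 and 94.1 CPM in KO and 164, 122 and 116 CPM in Ctrl (−0.40, SE 0.238, edgeR adjusted p = 0.289), lower in each KO library by little.

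Among ligases with a protease-associated domain and a transmembrane segment 0 of 6 tested passed (1 at an unadjusted p below 0.05, 0 by DESeq2). Of all genes 10.3% passed, 30.5% had an unadjusted p below 0.05 and DESeq2 called 22.1%. Rnf43, which removes Frizzled receptors from the cell surface and so limits Wnt signalling, had 7, 10 and 2 counts in KO 1, 2 and 3 and 3, 6 and 1 counts in Ctrl 1, 2 and 3, too few to compare. Rnf167, an endosomal and lysosomal ligase, was at 169, 212 and 296 CPM in KO and 344, 218 and 234 CPM in Ctrl (−0.23, edgeR adjusted p = 0.638), and its span overlaps Slc25a11, at 126 to 244 CPM. In the Wnt receptor turnover list 2 of 12 tested genes fell and 0 rose, beside 4.44% of all genes lower and 5.85% higher: Lgr5, an R-spondin receptor, at 3.17 CPM in KO and 11.4 CPM in Ctrl (means, −1.85, edgeR adjusted p = 0.0347), and its ligand gene Rspo2, at 3.94 CPM in KO and 11.3 CPM in Ctrl (−1.51, edgeR adjusted p = 0.0490).

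The signalling and cullin group had 1 of 13 lower, Rnf6, and 0 higher, beside 4.44% of all genes lower and 5.85% higher. Rnf44 (chromosome 13, 54679399 to 54694076), a RING ligase gene, was at 98.9, 145 and 176 CPM in KO 1, 2 and 3 and 81.2, 81.0 and 71.8 CPM in Ctrl 1, 2 and 3. Each KO library was above each Ctrl library, the log2 fold change was 0.84 (SE 0.270) and it did not pass (edgeR adjusted p = 0.0799). Without KO 1 it was 1.11 and passed (edgeR adjusted p = 0.00823, range 0.00823 to 0.266 over 14 alternatives), as it did in DESeq2 (0.88, adjusted p = 0.0339). With GC offsets it was 0.37 (edgeR adjusted p = 0.191). Rnf146, which with tankyrase degrades axin and so promotes Wnt signalling, was at 60.4, 31.2 and 41.8 CPM in KO and 53.9, 73.6 and 66.7 CPM in Ctrl (−0.54, SE 0.30, edgeR adjusted p = 0.257). Only KO 1 lay within the Ctrl range, and without it the value was −0.76 and passed (edgeR adjusted p = 0.0456, range 0.0456 to 0.558 over 14 alternatives). With GC offsets the value was −0.18 (edgeR adjusted p = 0.497).

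The innate immunity group had 0 of 4 past edgeR's quasi-likelihood test (1 at an unadjusted p below 0.05, 0 by DESeq2). The shares of all genes were 10.3% by edgeR, 30.5% at that unadjusted p and 22.1% by DESeq2. Rnf135 (Riplet), which activates the RNA sensor RIG-I, was at 12.9, 16.9 and 12 CPM in KO and 8.88, 9.12 and 10.7 CPM in Ctrl (0.54, edgeR adjusted p = 0.261), higher in each KO library. Rnf114, a zinc finger ligase, was at 104, 195 and 196 CPM in KO and 257, 169 and 172 CPM in Ctrl (−0.27, edgeR adjusted p = 0.608), and its span overlaps Spata2. Rnf125, a ligase that restrains RIG-I, ranged most of this group, at 49.0, 15.7 and 20.4 CPM in KO and 5.60, 16.3 and 11.5 CPM in Ctrl (1.35, SE 0.541, edgeR adjusted p = 0.138).

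Among the other 17 tested members 0 passed edgeR's quasi-likelihood test (3 at an unadjusted p below 0.05, 0 by DESeq2). For all genes the shares were 10.3%, 30.5% and 22.1%, in that order. The abundant Rnf187, a coactivator of AP-1, was at 242, 383 and 397 CPM in KO and 319, 243 and 254 CPM in Ctrl (0.33, edgeR adjusted p = 0.455), and Rnf10, which modifies small ribosomal subunits in human cells, at 191, 239.9 and 283 CPM in KO and 197, 186 and 172 CPM in Ctrl (0.36, edgeR adjusted p = 0.337). With GC offsets both estimates turned negative (−0.32 and −0.04). Rnf227 was at 6.08, 7.77 and 9.22 CPM in KO and 15.0, 12.3 and 14.1 CPM in Ctrl (−0.84, edgeR adjusted p = 0.116). Per kilobase of the longest annotated transcript the most abundant members were Rnf187 at 157, Rnf167 at 109 and Rnf145 at 98.0 CPM per kilobase over the 6 libraries, as levels. Those values may include reads from introns. The retrogene Rnf138rt1 and the pair Rnf113a1 and Rnf113a2 have near-identical copies, and their counts are uncertain.

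The enzymes that supply RING ligases with ubiquitin, the Ube2 genes, had 3 of 35 tested higher and 0 lower, beside 5.85% of all genes higher and 4.44% lower. Ube2c, the E2 of mitotic exit, was at 58.0 CPM in KO and 25.2 CPM in Ctrl (means, log2 fold change 1.20, edgeR adjusted p = 0.0376), Ube2l6, the E2 of the ubiquitin-like ISG15, at 20.1 CPM in KO and 7.39 CPM in Ctrl (1.44, edgeR adjusted p = 0.0327) and Ube2m, the E2 of NEDD8, at 16.8 CPM in KO and 4.77 CPM in Ctrl (1.82, edgeR adjusted p = 0.0376). Of 43 tested Trim genes, another large RING family, 1 was higher and 3 lower, beside the same shares of all genes. Trim47 was at 123 CPM in KO and 36.4 CPM in Ctrl (1.76, edgeR adjusted p = 0.0367), while Trim2, a neuronal ligase, was at 69.4 CPM in KO and 175 CPM in Ctrl (−1.34, edgeR adjusted p = 0.0237). Trim36 (−2.12, edgeR adjusted p = 0.0229) and Trim23 (−1.53, edgeR adjusted p = 0.0473) were the others.

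Libraries of 1 group differed in the levels of single Rnf genes, though for no larger share of them than of all genes. The log2 levels of KO 1 correlated with those of KO 2 and KO 3 at 0.883 and 0.891 over all genes, against 0.956 between KO 2 and KO 3 and 0.942 to 0.978 among the Ctrl libraries. Of the 71 tested members 11 were over 2-fold higher in KO 1 than in the mean of KO 2 and KO 3 (15.5%, against 17.4% of all genes), and 7 were under 0.5 of that mean (9.86%, against 17.6%). KO 2 and KO 3 differed over 2-fold for 6 members (8.45%, against 15.5%). Rnf11, an adaptor of ubiquitin ligases, was at 48.8, 7.33 and 7.20 CPM in KO 1, 2 and 3 and 15.1 to 19.6 CPM in Ctrl. Rnf103, an ER ligase, was at 49.4, 11.9 and 8.36 CPM in KO and 12 to 16.1 CPM in Ctrl. Both were high in KO 1 alone. Rnf138, a ligase of DNA end resection, was at 52.6, 13.3 and 14.8 CPM in KO 1, 2 and 3 and 14.9, 50.3 and 50.4 CPM in Ctrl 1, 2 and 3. Here KO 1, Ctrl 2 and Ctrl 3 were high and the other 3 libraries low, which cuts across genotype. Rnf11, Rnf103 and Rnf138 were named after their values were seen.

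**Figure D3:**
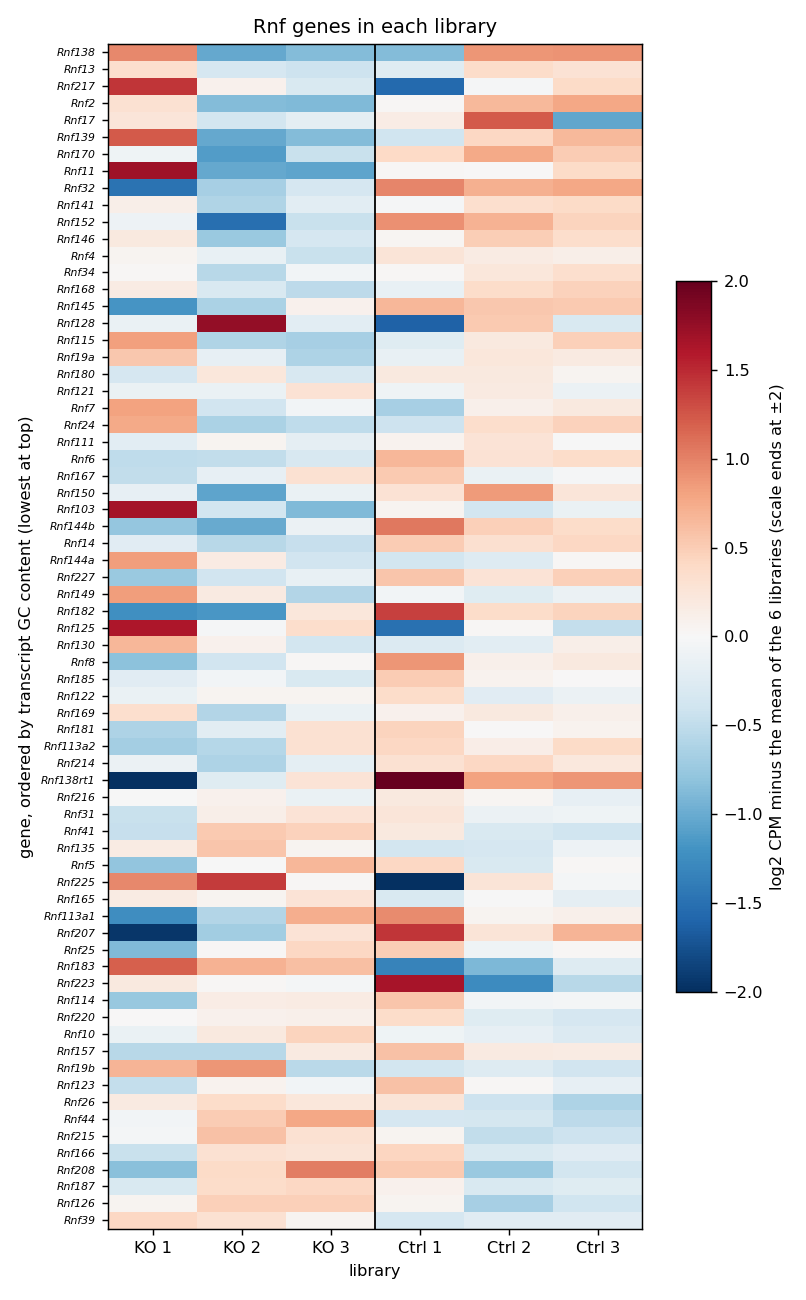
Log2 CPM of each of 70 of the 71 tested Rnf genes minus its mean over the 6 libraries, with KO libraries left of Ctrl libraries and genes ordered by transcript GC content, lowest at the top. KO 1 is redder at the top and bluer towards the bottom than KO 2 and KO 3. Rnf11 and Rnf103 are high in KO 1 alone, while Rnf138 is high in KO 1, Ctrl 2 and Ctrl 3.

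These differences went in part with the GC content of the transcripts. Across the 71 members the log2 ratio of KO 1 to the mean of KO 2 and KO 3 had a Pearson correlation of −0.50 with GC content, and that of Ctrl 1 to the mean of Ctrl 2 and Ctrl 3 one of 0.49, beside −0.51 and 0.33 over the 15803 tested genes with a GC value. The genes share their libraries and are not independent, so no p is given. The KO over Ctrl estimates (log2) correlated with GC content at 0.35 for the members and 0.37 for all genes, and without KO 1 at 0.62 and 0.53. With offsets fitted on GC content the figures were −0.13 and 0.00. The offsets were fitted to each library's deviations without regard to group, so a value near 0 over all genes was set by the fitting. They also take out any difference between KO and Ctrl that goes with GC content. In the fit with these offsets 5 members passed, all lower: Rnf144b, Rnf14, Rnf207, Rnf157 and Rnf123. Of all genes 12.9% passed in it (5.74% higher, 7.21% lower). Rnf207, a gene of heart muscle, had a log2 fold change of −1.40 without offsets and −1.76 with them. The share of GC content in the difference between the groups cannot be read from these fits and was not tested.

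**Figure D4:**
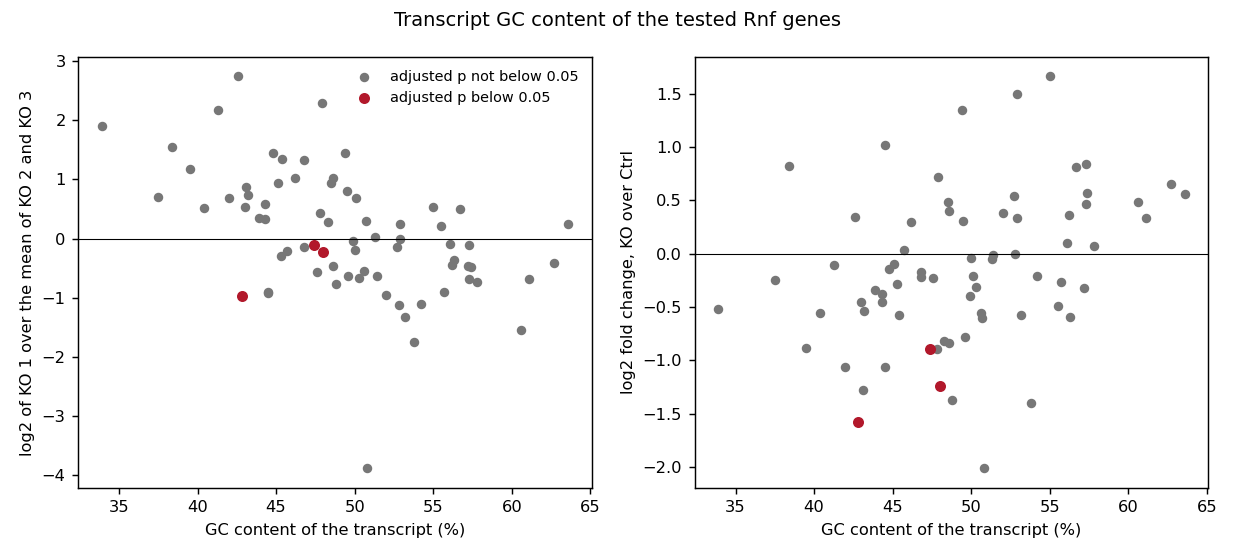
Transcript GC content, in percent, of the 71 tested Rnf genes against the log2 ratio of KO 1 to the mean of KO 2 and KO 3 (left) and the KO over Ctrl fold change, log2 (right); red marks an edgeR adjusted p below 0.05. The correlation is −0.50 on the left and 0.35 on the right.

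The authors' deposited table is a DESeq2 comparison on all transcript entries. There 21.8% of genes had an adjusted p below 0.05 (13.6% higher, 8.20% lower). Of the 71 members with an adjusted p, 10 were below 0.05 (14.1%, 3 higher and 7 lower). Besides Rnf32 (log2 fold change −1.49 in the authors' deposited table), Rnf144b (−1.16) and Rnf6 (−0.80) these were Rnf14, Rnf145, Rnf152 and Rnf170 on the lower side and Rnf183, Rnf125 and Rnf44 on the higher.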

How the data were processed

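Polyadenylated RNA was sequenced as single reads from 3 KO and 3 Ctrl libraries with a preparation that does not mark strand, per the labels' protocols. Trimmomatic 0.36, STAR, DESeq2, edgeR, deepTools and mm10 are named in the submitters' processing notes with no role or order, and the counting tool is not given in the sources used here. Per the file headers, the deposited table gives raw counts, normalized counts (a signal, each count divided by 1 size factor per library), RPKM, log2 fold changes with standard errors, a Wald score, p-values and a length. Only the authors' counts entered the tests. The length equals the genomic span within 2% for 80.4% of matched genes, so reads in introns and nested genes may be counted, and 24 of the 75 members overlap another gene. The count column of Ctrl 3 carries a name unlike its replicate number and was matched through the header of its normalized column.

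One entry per symbol was used: the longest, or with ties the one with most counts. KO was compared with Ctrl in edgeR 4.0.16 (R 4.3.3) with TMM, filterByExpr and glmQLFTest, two-sided, with no covariate, and each SE is the log2 fold change over the square root of F. Levels are CPM with TMM scaling. DESeq2 1.42.0, limma 3.58.1, 2 other scalings, no filter, GC offsets from GENCODE M21 transcripts, another entry per symbol, a replicate block and 6 fits without 1 library were the alternatives. The steps were tested on simulated data. With 3 against 3 an exact permutation test cannot go below 0.1. The replicates are different pups. Named were members past the threshold, the 10 with the smallest p, the 8 with the highest CPM and 9 of known role, 24 in all, and a few others for their values. Rnf213 was not analysed here, and 1 member is counted but not reported by name. The members and lists were chosen with earlier results of these data known. Coordinates are those of RefSeq genes on GRCm38.p6, the assembly of mm10. Python 3.11.15, pandas 2.3.3 and matplotlib 3.10.9 made summaries and plots.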

Additional observations from a re-analysis of the deposited data

How the results depend on the processing

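The count of 3 members past the threshold became 4 with DESeq2 size factors in edgeR (1 higher) or with library size alone (0 higher), 1 without a filter, 10 in DESeq2, 5 in limma-voom, 5 with GC offsets and 0 to 16 with 1 library left out. It was 0 without KO 2, Ctrl 1, Ctrl 2 or Ctrl 3, where no gene of the table passed either, 2 without KO 3 and 16 without KO 1. Over all genes the count of 1668 became 3556 in DESeq2, 1 with the replicate block and 0 to 4927 with 1 library left out. Of the 1668 calls 56.8% were higher, against 45.0% with library size alone and 44.3% with GC offsets. The members' median of −0.21 became −0.35 with library size alone, −0.14 with GC offsets and −0.21 to −0.13 with 1 library left out.

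With the replicate number as a block, 0 members and 1 gene in all passed. The labels state no pairing of the pups by number. Same-numbered libraries deviated from their group means with correlations of −0.39, 0.07 and −0.26. These deviations also carry the differences between single libraries, so they cannot decide whether pups were paired. Changes of sign were listed only for the 24 members named by rule. Among these, signs changed for Rnf31 with DESeq2 size factors (0.03) and in DESeq2 (0.02). They changed for Rnf5 with library size alone (−0.13), in limma-voom (−0.08), with the replicate block (−0.07) and with GC offsets (−0.29). With GC offsets they also changed for Rnf10 (−0.04) and Rnf187 (−0.32). With 1 library left out, Rnf31 ranged from −0.11 to 0.24, Rnf5 from −0.36 to 0.36, Rnf114 from −0.38 to 0.05 and Rnf167 from −0.42 to 0.00. None of these 6 passed the threshold in any of the settings. Members outside that list also changed sign. Without KO 1, Rnf11 went from 0.34 to −1.13 and passed as lower (edgeR adjusted p = 0.0251). Rnf103 went from 0.72 to −0.40 there and did not pass (edgeR adjusted p = 0.370). The causes were not tested. Depth limits Rnf43, Rnf112, Rnf151 and Rnf222, each with at most 17 counts in a library.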
